A study of Mus musculus with 6 samples.

Results

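Replication-dependent histone genes were examined in whole mammary tumours of mice dosed with vehicle or with TMP195, an inhibitor of class IIa histone deacetylases. Members were the genes H1f1 to H1f5 and the numbered H2ac, H2bc, H3c and H4c genes, taken from array rows (probe sets) whose annotation names exactly 1 gene. This gave 26 genes of 19937 tested: 4 of class H1, 4 of H2A, 9 of H2B, 3 of H3 and 6 of H4. In an older nomenclature these genes carry names such as Hist1h1a or Hist2h2be. Each was measured by 1 probe set, and no member was left out for low intensity.

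The tumours came from 6 female FVBN mice carrying the MMTV-PyMT transgene, aged 75 to 90 days, with 1 tumour from each mouse. All 6, controls included, thus carried polyoma middle T under the MMTV promoter, which is active mainly in mammary epithelium. The 3 control mice (Tumor.DMSO) received DMSO, and the other 3 (Tumor.TMP195) received 50 mg/kg TMP195, both once a day into the peritoneum. The labels give 5 days of dosing and the series design gives 2 weeks. Expression was read on Affymetrix arrays, 1 per tumour, and values below are log2 of the deposited intensity.

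Histones H2A, H2B, H3 and H4 form the core around which DNA is wrapped, and H1 binds the DNA between cores. The replication-dependent genes lie in clusters, have no introns and are transcribed in S phase, when new chromatin is built. Most of their mRNAs end in a stem-loop instead of a poly(A) tail and are processed with the stem-loop binding protein Slbp. Such mRNAs are degraded once DNA synthesis stops, so in tumours they are known as transcripts of dividing cells. Members described otherwise below include H1f2, H2bc21 and the testis genes. Of the members, 22 lie on chromosome 13 and 4 on chromosome 3. Within the core classes most members encode nearly the same protein, so probes can bind transcripts of sister genes. The value of a single gene is uncertain to that extent. The H1 genes encode separate subtypes, and binding to sister transcripts was not tested in any class.

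Promoter sequences are shown as description, and whether they bear on how the members varied over the tumours was not tested. RefSeq windows of build GRCm38.p6 were found for 22 of the 26 members, and the 250 bases before each annotated start were searched on both strands. Capitals mark 5 motifs, on either strand: the CCAAT box (CCAAT), the TATA box (TATAAA), the octamer bound by Oct-1 in H2B promoters (ATTTGCAT), an element of H1 promoters (AAACACA) and a core of the H4 cell cycle element (GGTCCG). H2ac8 and H2bc8 are transcribed away from each other, and the stretch between their starts (chr13:23571221-23571399, plus strand, H2bc8 to the right) lies before both.
H2ac8 and H2bc8: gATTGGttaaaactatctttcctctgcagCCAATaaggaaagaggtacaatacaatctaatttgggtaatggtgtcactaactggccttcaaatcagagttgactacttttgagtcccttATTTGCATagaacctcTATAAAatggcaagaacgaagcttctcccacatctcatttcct
The testis histone genes H2bc1 and H2ac1 share a stretch in the same way (chr13:23934157-23934436, plus strand, H2ac1 to the right).
H2bc1 and H2ac1: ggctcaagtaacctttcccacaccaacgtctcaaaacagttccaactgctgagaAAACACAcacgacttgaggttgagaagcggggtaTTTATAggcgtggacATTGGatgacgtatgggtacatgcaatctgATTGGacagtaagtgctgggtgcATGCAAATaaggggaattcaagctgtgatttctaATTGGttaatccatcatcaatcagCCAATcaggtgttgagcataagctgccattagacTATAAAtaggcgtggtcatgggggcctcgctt
H2bc14 is the member with the smallest p between the groups (chr13:21721794-21722043, plus strand).
H2bc14: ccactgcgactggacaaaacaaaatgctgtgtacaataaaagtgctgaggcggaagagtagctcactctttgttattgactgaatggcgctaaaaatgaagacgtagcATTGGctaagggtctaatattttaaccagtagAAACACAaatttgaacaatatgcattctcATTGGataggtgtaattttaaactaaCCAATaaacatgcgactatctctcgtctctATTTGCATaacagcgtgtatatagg
H1f1 (chr13:23763418-23763667, plus strand) and H4c4 (chr13:23581318-23581567, plus strand) are shown beside them. The H4c4 stretch holds the H4 motif, while H1f1 is the 1 H1 promoter of 4 that lacks the H1 motif.
H1f1: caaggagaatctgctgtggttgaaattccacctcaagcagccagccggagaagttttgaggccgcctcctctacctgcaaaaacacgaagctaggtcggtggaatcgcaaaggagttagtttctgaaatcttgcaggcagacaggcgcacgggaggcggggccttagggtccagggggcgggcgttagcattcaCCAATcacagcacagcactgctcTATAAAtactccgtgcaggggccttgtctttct
H4c4: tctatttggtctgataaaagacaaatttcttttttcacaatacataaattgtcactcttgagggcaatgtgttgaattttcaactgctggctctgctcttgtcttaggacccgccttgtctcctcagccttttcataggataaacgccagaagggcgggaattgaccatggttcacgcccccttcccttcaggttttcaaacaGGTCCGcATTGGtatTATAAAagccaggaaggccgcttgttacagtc

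The CCAAT box was present in 18 of the 22 member promoters (81.8%) and in 33.8% of all 32851 promoters of the same length. TATAAA was present in 14 of 22 (63.6%), against 12.4% of all. The octamer was found in 5 of 7 H2B and 3 of 4 H2A promoters, in 0 of those of the other classes, and in 526 of the 32851. Part of that count is shared, since divergent H2A and H2B genes have windows in common. GGTCCG was found in 4 of 5 H4 promoters (6.72% of all) and AAACACA in 3 of 4 H1 promoters (6.25% of all). Both were also found outside their class, GGTCCG in 1 H2B promoter and AAACACA in 2 H2A and 2 H2B promoters. These are matches of letters and were not tested as binding sites.

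Across the tumours, the histone genes were high in vehicle tumour 2 and low in TMP195 tumour 2. Of the 26 members, 24 were lowest in TMP195 tumour 2, where 22.4% of all genes had their lowest value. Vehicle tumour 2 held the highest value of 18 members, and of 24.2% of all genes. Relative to the mean of the other 5 tumours, the median over the members was -0.39 for TMP195 tumour 2 and 0.25 for vehicle tumour 2. Averaged over the members, log2 intensity was 7.10, 7.23 and 6.97 under vehicle (tumours 1 to 3) and 7.02, 6.70 and 7.11 under TMP195. The groups overlapped, and TMP195 tumour 3 stood above vehicle tumours 1 and 3. In whole tumours, fewer dividing cells and less histone mRNA per cell cannot be told apart.

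**Figure D1:**
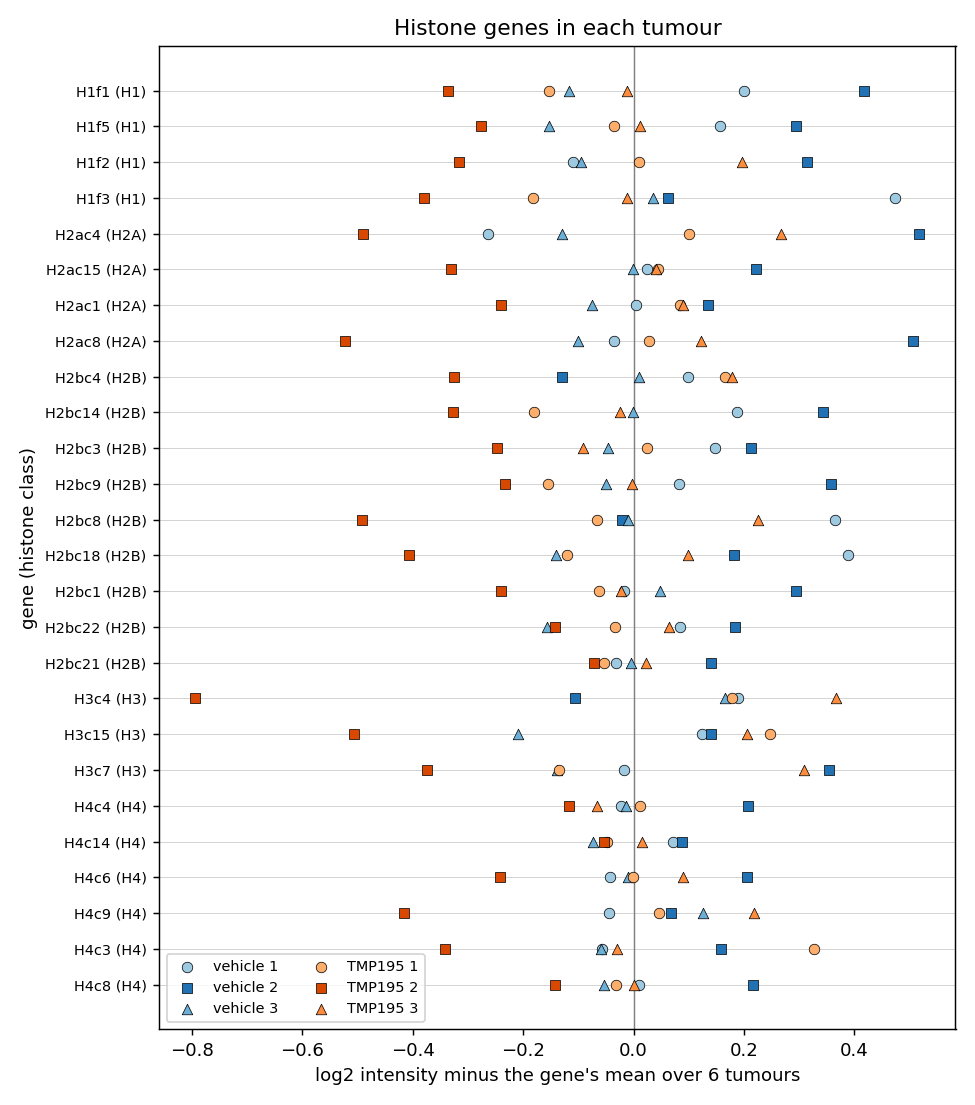
Log2 intensity of each of the 26 histone genes in each of 6 tumours, minus that gene's mean over the 6 tumours; each point is 1 tumour. TMP195 tumour 2 (dark orange squares) is the lowest point in 24 rows, and vehicle tumour 2 (dark blue squares) the highest in 18.

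The question of the design is whether TMP195 dosing altered expression in the tumour. The mean of 25 of 26 histone genes was lower in TMP195 tumours, with a median difference of -0.12 on the log2 scale (TMP195 minus vehicle), where 50.5% of all genes were lower and the median over all genes was -0.0014. None of the members passed an adjusted p of 0.05 in limma, nor did any of the 19937 genes (0%), and the smallest adjusted p of a member was 1.00. Before adjustment, 2 members (H2bc14 and H1f3) were lower at a limma p under 0.05, against 1.34% of all genes, and 0 were higher, against 1.18%. The groups did not overlap in 3 members (H1f3, H2bc14 and H2bc1), all lower, where 3.21% of all genes did so downwards and 3.47% upwards. Differences ran from -0.38 (H1f3) to 0.01 (H2bc4).

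That direction was weaker without either of tumours 2, though most members stayed lower. Without vehicle tumour 2, 20 of 26 members were lower and the median was -0.05; the difference turned sign in 7 members and shrank by over 1.5 times in 12 more. Without TMP195 tumour 2, 17 were lower and the median was -0.04, with 8 members turned and 9 more shrunk. Array weights, which count less on both tumours 2, left 17 lower and a median of -0.02. With both left out, a choice made with earlier results known, 11 of 26 were lower and the median turned to 0.02. In most members this removes the highest vehicle or the lowest TMP195 value, which raises the difference by construction. The turn is therefore no test of the direction. Omitting vehicle tumour 1 gave a median of -0.15 and omitting vehicle tumour 3 one of -0.17. Omission of TMP195 tumour 1 gave -0.18, and of TMP195 tumour 3 -0.23. Without both tumours 2 the most negative differences were those of H1f3 (-0.35), H2bc14 (-0.20), H2bc18 (-0.14) and H1f1 (-0.12), named here after their values were seen.

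**Figure D2:**
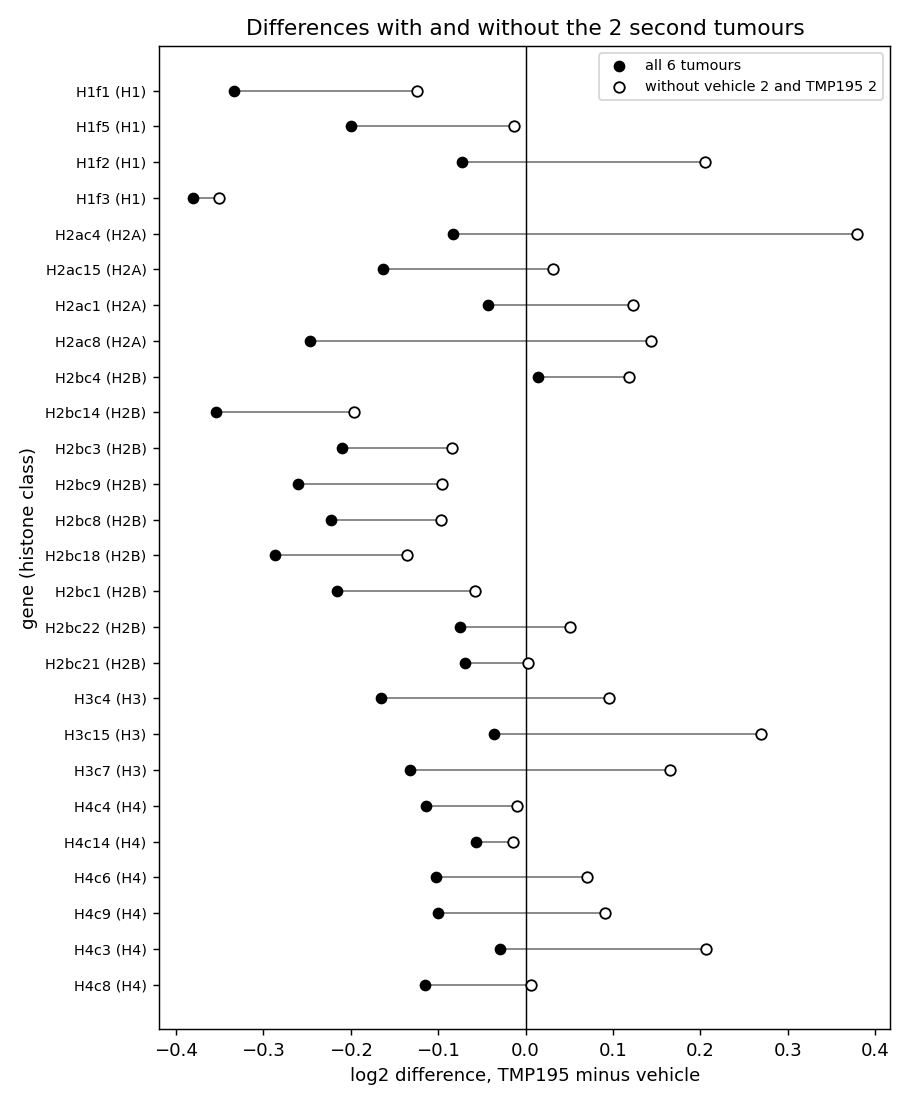
Log2 difference of each histone gene, TMP195 minus vehicle, in all 6 tumours (filled) and without vehicle tumour 2 and TMP195 tumour 2 (open). Filled points lie left of 0 in 25 rows and open points in 11.

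Each of the 4 linker histone (H1) genes had a lower TMP195 mean, and the class median was -0.27. H1f1, which encodes the linker subtype H1.1, read 8.63, 8.84 and 8.31 under vehicle and 8.27, 8.09 and 8.41 under TMP195. Its groups overlapped through vehicle tumour 3 and TMP195 tumour 3, and its difference was -0.33 ± 0.16 (SE). H1f5, the subtype H1.5, read 8.11, 8.25 and 7.80 under vehicle and 7.92, 7.68 and 7.96 under TMP195, a difference of -0.20 ± 0.14. H1f3, the subtype H1.3, read 4.27, 3.86 and 3.83 under vehicle and 3.61, 3.42 and 3.78 under TMP195. Every TMP195 tumour was below every vehicle tumour in H1f3, and the difference was -0.38 ± 0.16 (95% interval -0.75 to -0.01), or 23.2% lower. Its probe set was dim, at percentile 27.1 of all genes. H1f2, the subtype H1.2, whose mRNA is also made with a poly(A) tail in differentiated cells, read 7.44, 7.86 and 7.45 under vehicle and 7.56, 7.23 and 7.74 under TMP195. TMP195 tumours 1 and 3 exceeded vehicle tumours 1 and 3 in H1f2, and its difference of -0.07 ± 0.17 turned to 0.07 without vehicle tumour 2 or without TMP195 tumour 2.

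The 4 H2A genes were all lower on average, with a median of -0.12 that was 0.01 without TMP195 tumour 2 and -0.02 without vehicle tumour 2. All 4 were highest in vehicle tumour 2 and lowest in TMP195 tumour 2. H2ac4 and H2ac8 had the widest ranges over the tumours, 1.01 and 1.03. H2ac4 read 8.22, 9.01 and 8.36 under vehicle and 8.59, 7.997 and 8.75 under TMP195. TMP195 tumours 1 and 3 were above vehicle tumours 1 and 3 in H2ac4, so that its difference of -0.08 ± 0.26 (SE) turned to 0.38 without both tumours 2, to 0.15 without vehicle tumour 2 and to 0.14 without TMP195 tumour 2. H2ac15 read 7.20, 7.39 and 7.17 under vehicle and 7.22, 6.84 and 7.21 under TMP195, a difference of -0.16 ± 0.13. Apart from tumours 2, its values lay close together, between 7.17 and 7.22. H2ac8, another dim probe set (percentile 28.6), read 3.86, 4.402 and 3.80 under vehicle and 3.92, 3.37 and 4.02 under TMP195, a difference of -0.25 ± 0.23. It was -0.06 without vehicle tumour 2 and -0.05 without TMP195 tumour 2. H2ac1 encodes TH2A, an H2A of testis, and read 6.18, 6.31 and 6.10 under vehicle and 6.26, 5.94 and 6.27 under TMP195 (-0.04 ± 0.12). Its difference turned to 0.01 without vehicle tumour 2 and to 0.07 without TMP195 tumour 2.

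H2B was the class with the most members, 8 of 9 lower, and a median of -0.22. H2bc14 read 9.39, 9.55 and 9.20 under vehicle and 9.02, 8.88 and 9.18 under TMP195. Its groups did not overlap, though vehicle tumour 3 and TMP195 tumour 3 were nearly level. The difference was -0.35 ± 0.13 (SE; 95% interval -0.66 to -0.05), or 21.8% lower, and it ran from -0.44 to -0.27 when each tumour was left out in turn. H2bc9 read 7.54, 7.82 and 7.41 under vehicle and 7.31, 7.23 and 7.46 under TMP195, and H2bc3 read 7.71, 7.78 and 7.52 under vehicle and 7.59, 7.32 and 7.47 under TMP195. Both overlapped by a single TMP195 tumour, and they differed by -0.26 ± 0.13 and -0.21 ± 0.12. H2bc1 encodes TH2B, the testis H2B, and read 4.77, 5.08 and 4.83 under vehicle and 4.72, 4.55 and 4.76 under TMP195. Its groups did not overlap, but vehicle tumour 1 and TMP195 tumour 3 were nearly level, and the difference was -0.22 ± 0.12.

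H2bc4 was the 1 member with a higher mean under TMP195. It read 10.44, 10.21 and 10.35 under vehicle and 10.51, 10.02 and 10.52 under TMP195, so vehicle tumour 2 was the lowest vehicle tumour. Its difference was 0.01 ± 0.16 (SE; 95% interval -0.36 to 0.39). It became 0.18 without TMP195 tumour 2, -0.05 without vehicle tumour 2, and -0.07 without TMP195 tumour 1 or TMP195 tumour 3. Whether it differed from the other H2B genes was not tested. The remaining H2B genes, which the rule for named genes did not take and which are given for completeness, were H2bc18 (-0.29 ± 0.18), H2bc8 (-0.22 ± 0.20), H2bc22 (-0.08 ± 0.12) and H2bc21 (-0.07 ± 0.09). H2bc8 and H2bc18 were highest in vehicle tumour 1, at 7.73 and 7.55, and lowest in TMP195 tumour 2, at 6.87 and 6.76. H2bc21 encodes H2BE, a variant known from olfactory neurons, and it varied least among the H2B genes, from 4.57 to 4.78.

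The divergent pairs give a look at genes that share 1 promoter stretch. H2ac8 was highest in vehicle tumour 2, whereas H2bc8 was highest in vehicle tumour 1. Both genes were lowest in TMP195 tumour 2, and their differences were -0.25 and -0.22. Without TMP195 tumour 2 these were -0.05 and -0.03, and without both tumours 2 they were 0.14 for H2ac8 and -0.10 for H2bc8. In the testis pair H2ac1 and H2bc1 were both highest in vehicle tumour 2 and lowest in TMP195 tumour 2, with differences of -0.04 and -0.22.

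**Figure D3:**
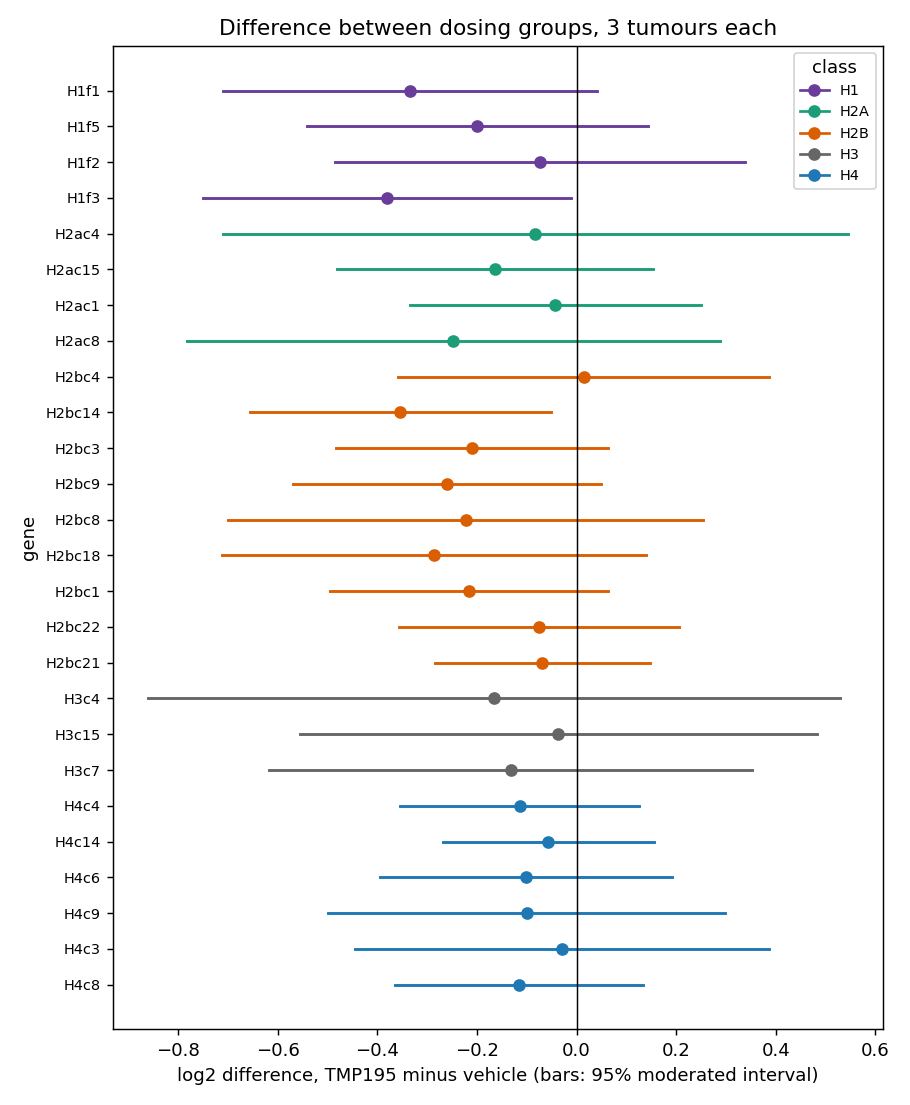
Log2 difference, TMP195 minus vehicle, of each histone gene with its 95% moderated interval from limma, coloured by class. The intervals of H1f3 and H2bc14 lie below 0 before adjustment, and the other 24 include 0.

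Only 3 H3 genes had a probe set of their own, and their median was -0.13. It was 0.01 without vehicle tumour 2, 0.19 without TMP195 tumour 2, and -0.02 with the pseudocount of 16. H3c4 read 6.82, 6.53 and 6.80 under vehicle and 6.81, 5.84 and 7.002 under TMP195. The low value of TMP195 tumour 2 set the difference of -0.17 ± 0.29 (SE), which turned to 0.19 without that tumour. H3c15 read 4.97, 4.99 and 4.64 under vehicle and 5.09, 4.34 and 5.05 under TMP195, a difference of -0.04 ± 0.22. It too was higher without TMP195 tumour 2, at 0.21, and it was 0.02 without either vehicle tumour 1 or vehicle tumour 2. H3c7 was among the dimmest probe sets of the array, at percentile 3.56, and read 1.65, 2.02 and 1.53 under vehicle and 1.53, 1.29 and 1.97 under TMP195. Its difference of -0.13 ± 0.20 turned to 0.01 without vehicle tumour 2 and to 0.02 without TMP195 tumour 2. TMP195 tumour 2 had an H3 class mean of 3.82, and the rest had 4.32 to 4.68.

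All 6 H4 genes were lower on average, with a class median of -0.10 that was -0.03 without either vehicle tumour 2 or TMP195 tumour 2. H4c4 read 10.91, 11.14 and 10.92 under vehicle and 10.94, 10.81 and 10.87 under TMP195, a difference of -0.11 ± 0.10 (SE). H4c14 read 10.36, 10.37 and 10.21 under vehicle and 10.24, 10.23 and 10.30 under TMP195 (-0.06 ± 0.09). Its whole range over the 6 tumours was 0.16, the smallest of any member. H4c6 read 9.13, 9.38 and 9.17 under vehicle and 9.18, 8.94 and 9.27 under TMP195 (-0.10 ± 0.12). H4c8 read 7.03, 7.24 and 6.97 under vehicle and 6.99, 6.88 and 7.02 under TMP195 (-0.12 ± 0.11). In both, tumours 2 held the highest and the lowest value. H4c8 was 0.01 without both tumours 2. H4c9 and H4c3, again outside the rule, differed by -0.10 ± 0.17 and -0.03 ± 0.18. TMP195 tumour 1 held the highest H4c3 value, 7.56, and TMP195 tumour 3 the highest H4c9 value, 8.19.

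Because members of the core classes are so alike, 26 further probe sets named several genes, with an H1f1 to H1f5 or numbered histone gene among them. The pairs H4c17 with H4c11 and H2bc6 with H1f4 hold none of the 26 members. These 26 probe sets were outside the membership rule. They were summarised by family, as the same transcripts are read many times over: 10 probe sets of the H3 family named 12 genes each, 7 of H2B named 14 or 15, 5 of H4 named 11, 2 of H2A named 19 or 20, and 2 named a pair of genes. Of the 26, 25 were lower under TMP195 and 1, for H4c17 and H4c11, was higher (0.0076). With every probe set tested in limma, 0 passed an adjusted p of 0.05, 0 had an unadjusted p under 0.05, and 2 had groups that did not overlap. Of the 19937 genes, 6.68% had groups that did not overlap, in either direction, and 3.21% did so downwards. In limma 1.34% of the genes were lower and 1.18% higher at an unadjusted p under 0.05. All 26 were lowest in TMP195 tumour 2.

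The H3 probe sets averaged 11.36, 11.78 and 11.39 under vehicle and 11.38, 11.13 and 11.48 under TMP195. Vehicle tumour 2 stood 0.40 above the mean of the other vehicle tumours. The same step was 0.18 for H4, 0.15 for H2B and 0.06 for H2A. The H2A probe sets read 11.87, 11.88 and 11.77 under vehicle and 11.73, 11.62 and 11.77 under TMP195, so vehicle tumours 1 and 2 were nearly level. H2B probe sets read 10.96, 11.03 and 10.81 under vehicle and 10.81, 10.64 and 10.82 under TMP195. The H4 probe sets read 11.63, 11.82 and 11.63 under vehicle and 11.65, 11.45 and 11.66 under TMP195. Median differences were -0.18 for H3, -0.18 for H2B, -0.13 for H2A and -0.11 for H4. Whether the families differ from each other was not tested.

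**Figure D4:**
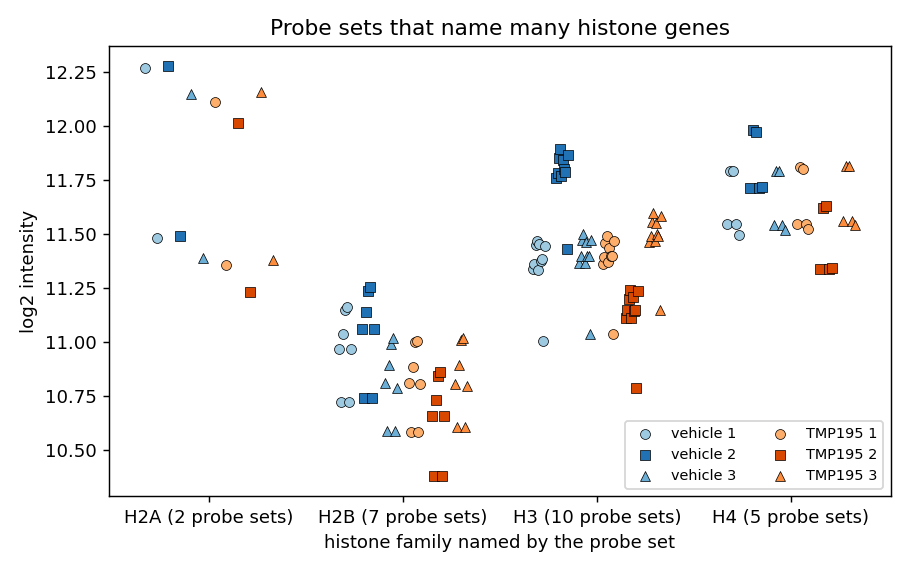
Log2 intensity of 24 probe sets that name many genes of 1 histone family; each point is 1 probe set in 1 tumour, and points of a family share transcripts. In H3, vehicle tumour 2 averages 11.78 against 11.13 in TMP195 tumour 2, and the other 4 tumours average 11.36 to 11.48.

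Genes of the pathway around the members were taken from lists. Of 25 measured genes for histone mRNA synthesis and 3' end processing, 19 were lower, 6 higher and 0 passed the limma test, with a median of -0.03 that was 0.005 without vehicle tumour 2. Slbp, which binds the stem-loop, read 7.57, 7.86 and 7.68 under vehicle and 7.60, 7.71 and 7.78 under TMP195 (-0.01 ± 0.11 SE). TMP195 tumour 2 was not low in Slbp, and the sign turned with median centring (0.01). Leaving out vehicle tumour 2 gave 0.07 and leaving out TMP195 tumour 1 gave 0.04. Npat, the coactivator that cyclin E-Cdk2 phosphorylates to start histone transcription, read 7.26, 7.22 and 7.18 under vehicle and 7.09, 7.40 and 7.27 under TMP195. It was highest in TMP195 tumour 2, where the histone genes were lowest, and its difference of 0.03 ± 0.10 became -0.04 without that tumour. The cyclin E genes Ccne1 and Ccne2 differed by -0.33 ± 0.25 and -0.23 ± 0.17, and Ccne1 was highest in vehicle tumour 2, at 7.63 against 6.51 to 7.01 in the rest. Without vehicle tumour 2 Ccne1 was -0.05 and Ccne2 -0.10, and without TMP195 tumour 3 they were -0.47 and -0.37. Coil, a scaffold of Cajal bodies, differed by -0.14 ± 0.12 and Tut4, which uridylates RNA, by 0.11 ± 0.09.

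Histone chaperone genes were lower in 16 of 23 measured members, with 0 past the test and a median of -0.04 that was 0.006 without TMP195 tumour 2. Chaf1b and Chaf1a, subunits of the assembly factor CAF-1 that places H3 and H4 on new DNA, differed by -0.35 ± 0.20 (SE) and -0.24 ± 0.18. Chaf1b read 7.49, 8.07 and 7.51 under vehicle and 7.33, 7.09 and 7.60 under TMP195, high and low in the same tumours as the histone genes. Mcm2, a helicase subunit that also binds H3 and H4, differed by -0.32 ± 0.23, and the H2A-H2B chaperone Nap1l1 by -0.20 ± 0.14. Without vehicle tumour 2 Chaf1b was -0.16, Chaf1a -0.13, Mcm2 -0.12 and Nap1l1 -0.14. Without TMP195 tumour 2 they were -0.23, -0.07, -0.14 and -0.08.

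Histone variants made outside S phase as well were lower in 8 and higher in 4 of 12 measured, with a median of -0.07 and 0 past the test. H2az1 and H2az2, which encode H2A.Z, differed by -0.14 ± 0.14 (SE) and -0.17 ± 0.11. H2ax, the variant phosphorylated at DNA breaks, read 7.40, 7.77 and 7.33 under vehicle and 7.36, 6.96 and 7.59 under TMP195 (-0.20 ± 0.19). Hils1, a linker histone of spermatids, differed by 0.15 ± 0.11. Without both tumours 2, which hold the highest and the lowest values of H2ax and H2az1, their differences were 0.11 and 0.07. Leaving these values out raises the difference by construction.

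Genes of S phase and cell division tracked the histone genes by tumour. Of 25 measured, 24 were lower and 1 higher, with a median of -0.24 and 0 past the limma test. The exception was Tk1, thymidine kinase, highest in TMP195 tumour 2 at 9.83 against 7.43 to 8.14 in the rest. Of the list, 24 were lowest in TMP195 tumour 2 and 23 were highest in vehicle tumour 2. The list averaged 7.85, 8.26 and 7.83 under vehicle and 7.78, 7.45 and 8.02 under TMP195, and its summed intensity ran from 7155 to 9627 under vehicle and from 5949 to 8384 under TMP195. Without both tumours 2, which hold the extreme values of most of the list, the median turned to 0.07. It was -0.10 without vehicle tumour 2 and -0.07 without TMP195 tumour 2. The part of cell division in the histone values was not tested.

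Gins1 and Gins2, subunits of the replicative helicase, differed by -0.51 ± 0.28 (SE) and -0.17 ± 0.10, the helicase gene Mcm6 by -0.45 ± 0.25 and Tyms, which makes thymidylate, by -0.38 ± 0.17. Without TMP195 tumour 2 these were -0.20 for Gins1, -0.13 for Gins2, -0.20 for Mcm6 and -0.22 for Tyms. Pcna, the sliding clamp of DNA polymerase, read 9.83, 10.01 and 9.70 under vehicle and 9.65, 9.41 and 9.91 under TMP195 (-0.19 ± 0.15). Mki67, the Ki-67 antigen of cycling cells, read 9.91, 9.85 and 9.66 under vehicle and 9.79, 9.04 and 9.94 under TMP195. In Mki67 the low value of TMP195 tumour 2 made the difference of -0.21 ± 0.23, which turned to 0.06 without it.

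**Figure D5:**
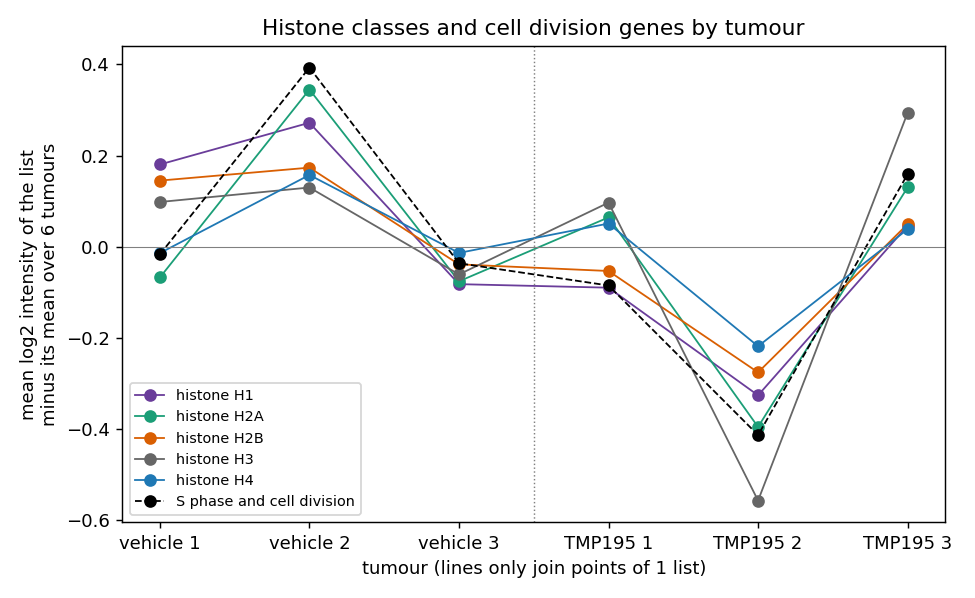
Mean log2 intensity of each histone class and of 25 S phase and cell division genes in each tumour, minus the list's mean over 6 tumours. Every list is lowest in TMP195 tumour 2, and all but H3 are highest in vehicle tumour 2.

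The labelled tissue was borne out by 11 measured mammary epithelial markers, whose mean lay between 9.97 and 10.07 in all 6 tumours, with Krt18, Krt8 and Epcam at percentiles 99.3, 98.8 and 97.2 of all genes. Esr1 was the dimmest, at percentile 62.3. That mean holds opposite shifts in TMP195 tumour 2. There Krt7 (10.01) and Krt19 (10.52) were at their highest, and Cldn4 (8.28) and Elf5 (10.70) at their lowest. Other tissue in the tumours differed too, only in part in the tumours that stood apart in the histone genes. Summed intensity of 12 skeletal muscle markers was 3934 in vehicle tumour 2 and 354.6 to 468.2 in the other 5 tumours. That of 11 adipocyte markers was 2996, 2099 and 7756 under vehicle (tumours 1 to 3) and 5369, 808.1 and 1663 under TMP195. It was lowest in TMP195 tumour 2 and highest in vehicle tumour 3, where the macrophage and fibroblast sums below were highest as well. T and B cell markers (10 measured) summed to 183.4 to 219.8 under vehicle and 185.3 to 260.1 under TMP195, highest in TMP195 tumour 2. The sum over 12 macrophage markers ranged from 3943 to 4670 under vehicle and 3696 to 4624 under TMP195, and that over 10 fibroblast markers from 7594 to 11647 and 6952 to 10908. Endothelial markers (10) summed to 1125 to 1376 under vehicle and 1261 to 1431 under TMP195, and erythroid markers (4 measured) to 82.0 to 92.8 and 76.8 to 81.7. None of these markers was listed at 0. Their part in the histone values was not tested.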

How the data were processed

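Whole-tumour RNA of 3 vehicle and 3 TMP195 mice was read on Affymetrix arrays. The deposited values are probe set intensity made by the authors; the submitters' processing notes name RMA and Affymetrix Power Tools. The sources used here give neither versions nor whether labelling was primed from poly(A) tails, which most of these mRNAs lack. The scale and any centring are not stated; medians of 44.8 to 46.4 were read as linear, uncentred intensity. RMA usually equalises the arrays' distributions, which would hide a shift of most genes.

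The table held 27359 probe sets: 21784 with 1 gene symbol, 1620 with several and 3955 with none. Older symbols came from a RefSeq table (GRCm38.p6). Each gene was represented by its probe set of highest mean. Log2 intensity of 19937 genes was tested two-sided by limma 3.58.1 (R 4.3.3; lmFit and eBayes, no covariate), with Benjamini-Hochberg adjustment over all genes. The median half-width of a gene's 95% interval was 0.30, and the number of arrays limits it. The fit was tested on simulated data. Python 3.11.15, pandas 2.3.3 and matplotlib 3.10.9 made summaries and plots.

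Members, lists, tests and alternatives were chosen with earlier results of these data known. Named genes were, per class, the 3 of highest mean and the 4 of smallest p, the extreme differences and testis histones, plus 4 genes per related list by p and Slbp, Npat, Mki67 and Pcna. This took 20 of 26 members. Listed genes with no single-gene probe set were not used here. Other settings tried were a block for the replicate number, eBayes with trend and robust options, cyclic loess or median centring, a filter at the 30th percentile, other choices of rows, array weights, a pseudocount of 16 and leaving out tumours.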

Additional observations from a re-analysis of the deposited data

How the results depend on the processing

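No setting gave a gene past an adjusted p of 0.05, and the smallest adjusted p of a named gene in limma was 0.963 (without vehicle tumour 1). The count of 2 members at an unadjusted p under 0.05 became 0 with the replicate block and with array weights, and 1 with median centring, the 30th percentile filter, the pseudocount or both tumours 2 left out. Leaving out each tumour in turn gave 0 to 4: 0 on omitting vehicle tumour 1 or either of TMP195 tumours 1 and 2, 1 on omitting vehicle tumour 2, and 4 on omitting vehicle tumour 3. The share of all genes under this p is given here only for the fit without such changes. These counts therefore lack a background and are not read as a result about the members. The replicate block changed no other count or call. In the labels, same-numbered tumours share only that number. Their deviations from the group mean correlated at -0.21, -0.063 and -0.097, and those of other pairs from -0.18 to 0.34. Centring within each group ties these values to each other, so they cannot show whether a pairing exists. The 3 members with separate groups, beside 6.68% of all genes in either direction, became 0 with median centring (6.62%). Leaving out each tumour gave 3 to 11, but fewer samples separate more easily. The count was 11 without vehicle tumour 3 (14.5% of all genes) and 7 without TMP195 tumour 3 (15.8%), all lower. It was 5, again all lower, without TMP195 tumour 1 (16.9%). Without TMP195 tumour 2 it was 5 (15.2%), of which 3 were lower and 2 higher. Without both tumours 2 it was 12, of which 9 were higher under TMP195 (28.8% of all genes). The count lower under TMP195 became 41 of 43 with 17 several-gene probe sets added, which name only H1f1 to H1f5 or numbered histone genes. It was 17 of 26 with array weights and 11 of 26 without both tumours 2. Many of the several-gene probe sets read the same transcripts, so they do not add independent counts. With array weights the median was -0.023 over the members, 0.027 for H2A and 0.078 for H3.

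Without both tumours 2 the medians were -0.069 for H1, 0.13 for H2A, -0.084 for H2B, 0.17 for H3, 0.038 for H4, 0.029 for histone variants and 0.070 for S phase genes. The sign then turned for H1f2 (0.20), H2ac1 (0.12), H2ac15 (0.031), H2ac4 (0.38), H2ac8 (0.14), H3c15 (0.27), H3c4 (0.096), H3c7 (0.17), H4c6 (0.071), H4c8 (0.0061), Ccne1 (0.059), Mcm2 (0.057), Chaf1a (0.035), H2ax (0.11), H2az1 (0.069), Slbp (0.067), Npat (-0.038), Mki67 (0.084) and Pcna (0.011). Array weights turned H1f2 (0.086), H2ac1 (0.067), H2ac4 (0.15), H3c15 (0.21), H3c4 (0.013), H3c7 (0.078), Slbp (0.018) and Mki67 (0.020). Median centring turned the gene Slbp (0.0085). Leaving out each tumour turned the sign at least once for H3c15 (-0.17 to 0.21), H1f2 (-0.19 to 0.066), H2ac1 (-0.099 to 0.066), H2ac4 (-0.24 to 0.15), H2bc4 (-0.072 to 0.18), H3c7 (-0.32 to 0.021), Slbp (-0.072 to 0.072), H3c4 (-0.39 to 0.19), Npat (-0.037 to 0.11) and Mki67 (-0.39 to 0.064). The H2A median ran from -0.23 to 0.013 and the H3 median from -0.32 to 0.19. Leaving out tumours 2 removes extreme values of most members, which by itself moves the differences upward. Apart from that and the effect of having fewer samples, the cause was not tested. With 3 tumours a group, and a median 95% half-width of 0.30, differences of the size seen in most members were not detectable.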

Other observations

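Histone genes with an older Hist symbol but outside the numbered families were added after seeing the data. H2aw, an H2A gene outside the main clusters, read 8.66, 8.82 and 8.63 under vehicle and 8.60, 8.49 and 8.62 under TMP195 (-0.14 ± 0.10 SE), lowest in TMP195 tumour 2 as most members were. H4f16 read 8.79, 8.95 and 8.55 under vehicle and 8.58, 8.80 and 8.73 under TMP195 (-0.06 ± 0.13), and TMP195 tumour 2 was the highest TMP195 tumour. H2bu2 differed by -0.08 ± 0.12 and the pseudogene H2bu1-ps by -0.13 ± 0.10. H1f6, the testis linker histone, was the only one of these 5 with a higher TMP195 mean (0.21 ± 0.16), on a dim probe set. None passed the limma test.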
